A study of Mus musculus with 3 samples.

Results

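The genes described here are 10 genes of bone morphogenetic protein (BMP) signalling: the ligands Bmp2, Bmp4, Bmp5 and Bmp7, the extracellular modulators Grem1, Nog, Chrd and Bmper, and the target genes Id1 and Id3. They were picked by gene symbol, from oligos that the platform annotation gives exactly 1 symbol. All 10 of the 10 were measured, among 19635 genes tested, and 0 were missing. The 10 genes were read by 11 oligos, since Bmp2 had 2 and each of the others had 1. Oligos with several symbols or none count among the 19635, each under its own identifier. The study set RNA of mouse kidney at 13.5 dpc (days post coitum) against RNA of metanephric mesenchyme at 10.5 dpc, on the same array, with 3 arrays and no separate reference. Both tissues were microdissected from CD1 embryos of both sexes, pooled, with no treatment or allele named, and their RNA was amplified before labelling. The mesenchyme sample is the tissue from which nephrons form, whereas the kidney sample is the whole organ, with ureteric branches, early nephrons, stroma and vessels. A ratio between them cannot tell a change in RNA per cell from a change in the share of a cell type.

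BMPs are secreted dimers that bring type I and type II receptor kinases together. The type I receptor phosphorylates Smad1, Smad5 and Smad9, which enter the nucleus with Smad4 and switch on targets such as the Id genes. Noggin, chordin and gremlin bind the ligands outside the cell and keep them from the receptors. In the forming kidney, Bmp7 supports the survival of nephron progenitors, Bmp4 around the nephric duct restrains budding, and gremlin relieves that restraint so that the ureteric bud can grow and branch.

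Each value is a deposited log2 ratio of the channels of 1 array. The sources used here do not say which tissue is the numerator, so a gene is described by the side of 0 on which its ratio fell, and no value is read as higher in one tissue. For orientation, the tubular cadherin Cdh16 and the nephron-inducing signal Wnt4 lay on the positive side (means 3.31 and 1.84), and the red-cell genes Klf1 and Hbb-bh1 on the negative side (means -3.02 and -3.95). Array 3 stood apart from the others over all genes. The Pearson correlation across genes was 0.46 between arrays 1 and 2, 0.17 between arrays 1 and 3 and 0.16 between arrays 2 and 3, and genes are not independent replicates. For that reason the BMP values are also given without array 3.

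Promoter sequence was found in the RefSeq-derived table of build GRCm38.p6 for 6 of the 10 genes. The 250 bases before the start of transcription are printed, 5′ to 3′ on the gene's strand, for Bmper and Id3, which were positive on all 3 arrays, for Bmp4, the only member negative on all 3, and for Grem1, which held the most motif matches. Capitals mark GTCT or its reverse complement AGAC, the core that Smad proteins bind, and GGCGCC, a GC-rich Smad site that reads the same on both strands. These motifs cannot overlap each other.
Bmper, chr9:23222826-23223075: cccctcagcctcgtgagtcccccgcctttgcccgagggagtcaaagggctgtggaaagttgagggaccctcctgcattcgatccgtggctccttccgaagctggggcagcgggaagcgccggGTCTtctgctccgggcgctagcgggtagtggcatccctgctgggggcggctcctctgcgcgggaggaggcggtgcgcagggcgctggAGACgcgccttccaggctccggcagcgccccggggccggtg
Id3, chr4:136143572-136143821: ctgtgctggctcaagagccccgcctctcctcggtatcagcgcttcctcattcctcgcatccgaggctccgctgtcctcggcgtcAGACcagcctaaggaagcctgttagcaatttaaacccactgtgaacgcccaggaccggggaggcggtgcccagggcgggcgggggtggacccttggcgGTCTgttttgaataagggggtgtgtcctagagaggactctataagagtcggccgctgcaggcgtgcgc
Bmp4, chr14:46390670-46390919: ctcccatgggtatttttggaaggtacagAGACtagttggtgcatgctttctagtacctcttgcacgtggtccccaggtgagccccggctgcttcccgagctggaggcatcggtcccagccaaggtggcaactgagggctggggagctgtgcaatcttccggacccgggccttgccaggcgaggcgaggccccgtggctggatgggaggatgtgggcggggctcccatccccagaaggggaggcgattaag
Grem1, chr2:113758649-113758898: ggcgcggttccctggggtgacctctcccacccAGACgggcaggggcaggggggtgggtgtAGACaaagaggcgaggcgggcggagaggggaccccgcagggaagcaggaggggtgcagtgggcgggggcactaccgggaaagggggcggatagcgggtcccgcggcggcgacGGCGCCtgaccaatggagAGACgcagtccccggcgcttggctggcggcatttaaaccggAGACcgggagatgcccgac
Bmper and Id3 lie on the plus strand, Bmp4 and Grem1 on the minus strand. GTCT or AGAC was found 2 times in the Bmper window and 2 times in the Id3 window. It was found 1 time in the Bmp4 window and 4 times in the Grem1 window. Of 32536 distinct windows of the same length in the table, 82.9% held at least 1 match and 12.4% held at least 4, so 1 or 2 matches are ordinary. GGCGCC, which 9.65% of the windows held, was found in Grem1, 78 bases before the start, and in Chrd, but not in Bmper, Id3, Bmp4 or Bmp5. A match is a run of letters and was not tested as a binding site.

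Of the 10 genes, Bmper and Id1 lay farthest to the positive side relative to their spread. Id3 and Bmp7 were positive on arrays 1 and 2 and near 0 on array 3. Bmp4 was negative on all 3 arrays with a small mean, and the rest changed sign between arrays. One sign on arrays 1 and 2 was seen for 7 of the 10, against 69.8% of all genes. Nog and Chrd, both negative there, are among the 7. Among ligands and extracellular modulators the sides differed from gene to gene. By limma with Benjamini-Hochberg adjustment over all genes, 0 of the 10 passed an adjusted p of 0.05, a bar that 0.00509% of all genes passed. That share is 1 gene of 19635. The orientation genes Cdh16, Wnt4, Klf1 and Hbb-bh1 missed the bar too (limma adjusted p = 0.107 for each), so missing it does not set a gene apart. An unadjusted limma p under 0.05 was met by 2 of the 10, Bmper and Id1, both positive; 16.8% of all genes met that rule, 8.99% with a positive mean and 7.83% with a negative one. One sign on all 3 arrays was seen for 5 of the 10, against 41.3% of all genes. Bmper, Id1, Id3 and Bmp7 were positive on every array, as were 21.5% of all genes, and Bmp4 was negative on every array, as were 19.9%. The median of the 10 means was 0.18, against 0.0020 over all genes tested. With 10 genes, counts this close to the background do not set the group apart from other genes.

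**Figure D1:**
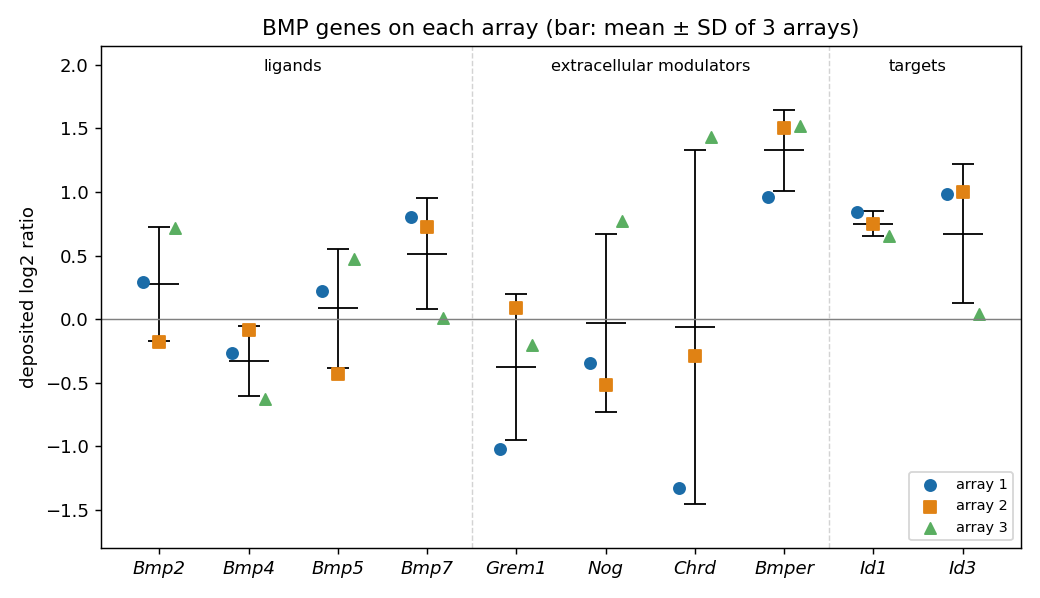
Deposited log2 ratio (vertical axis) of each of the 10 BMP genes on arrays 1 (circles), 2 (squares) and 3 (triangles), with the mean and SD of the 3 arrays as bars; Bmp2 is the average of its 2 oligos. Id1 has the tightest values, from 0.65 to 0.85, Bmper the highest mean (1.33), and Chrd the widest spread, from -1.33 to 1.43.

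Bmp7, the ligand of the nephron progenitor field and ureteric tips, stood at 0.80 on array 1, 0.72 on array 2 and 0.010 on array 3. Arrays 1 and 2 thus lay close together and array 3 lay at 0. The mean was 0.51 ± 0.44 (SD, n = 3), a 1.43-fold difference, with a moderated 95% interval from -0.082 to 1.11 and a limma adjusted p of 0.348. Without array 3 the mean was 0.76 (limma unadjusted p = 0.0133), a fit in which 19.9% of all genes had an unadjusted p under 0.05. Without array 1 the mean was 0.37 (limma unadjusted p = 0.282), and without array 2 it was 0.41 (limma unadjusted p = 0.267). In rank over all genes, Bmp7 stood at percentile 90.2 on array 1, 92.9 on array 2 and 51.1 on array 3.

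Bmp4, the ligand made by the mesenchyme around the nephric duct and the ureter, stood at -0.27, -0.088 and -0.63 on arrays 1, 2 and 3. All 3 values were negative, and array 2 was nearest to 0. Its mean was -0.33 ± 0.28 (SD, n = 3), a 1.26-fold difference, with an interval from -0.81 to 0.15 (limma adjusted p = 0.433), and without array 3 it was -0.18. Bmp4 and Bmp7 therefore had means on opposite sides of the ratio, each with an interval that included 0. The difference between them was not tested.

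Bmp5, a ligand of the same class as Bmp7, stood at 0.22, -0.44 and 0.47, with array 2 on the other side from arrays 1 and 3. Its mean of 0.085 ± 0.47 (SD, n = 3) was smaller than the spread (limma adjusted p = 0.881), and without array 3 it was -0.11.

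Bmp2, the closest relative of Bmp4, was read by 2 oligos, which did not give the same picture. The oligo designed to a RefSeq mRNA stood at -0.24, -0.25 and 0.044, close to 0 on array 3 and slightly negative on arrays 1 and 2. The other, designed to a different GenBank record, stood at 0.83, -0.11 and 1.39, high on arrays 1 and 3 and near 0 on array 2. Their means were -0.15 ± 0.17 and 0.70 ± 0.76 (SD, n = 3), on opposite sides of 0. Averaged, Bmp2 had 0.29, -0.18 and 0.72 and a mean of 0.28 ± 0.45 (SD, n = 3; limma adjusted p = 0.589), or 0.057 without array 3. Of the 4 ligands, 3 had a positive mean, and the median of their means was 0.18. An unadjusted limma p under 0.05 was met by 0 of the 4, against 16.8% of all genes.

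Bmper, the BMP-binding endothelial regulator, binds BMPs in the matrix and can either block or aid their signalling. It stood at 0.96 on array 1, 1.50 on array 2 and 1.52 on array 3. Every array placed it well to the positive side, at percentiles 93.0, 99.0 and 97.5 of all genes, and array 3 did not differ from the others in direction. The mean was 1.33 ± 0.32 (SD, n = 3), a 2.51-fold difference, with an interval from 0.82 to 1.83. It ranked 257 of 19635 genes by p (limma unadjusted p = 0.00147) and had an adjusted p of 0.109. Leaving out 1 array at a time gave means from 1.23, without array 3, to 1.51.

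The classical antagonists showed no such agreement between arrays. Grem1, gremlin, stood at -1.02, 0.085 and -0.21, so that array 1 alone carried a mean of -0.38 ± 0.57 (SD, n = 3; limma adjusted p = 0.530), which was -0.060 without array 1 and -0.47 without array 3. Nog, noggin, stood at -0.35 and -0.52 on arrays 1 and 2 and at 0.77 on array 3. Its mean was -0.033 ± 0.70 (SD, n = 3; limma adjusted p = 0.969), and -0.43 without array 3 (limma unadjusted p = 0.0692).

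Chrd, chordin, spanned more of the scale than any other of the 10 genes, with -1.33, -0.29 and 1.43 on arrays 1, 2 and 3. It stood at percentile 3.68 on array 1 and at percentile 97.0 on array 3, near opposite ends of the ratios. The mean of -0.064 ± 1.39 (SD, n = 3; limma adjusted p = 0.967) has an interval from -1.57 to 1.44. Without array 3 the mean was -0.81. Chrd and Nog were the 2 members whose sign on array 3 was opposite to that on both other arrays, a pattern seen in 28.4% of all genes.

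**Figure D2:**
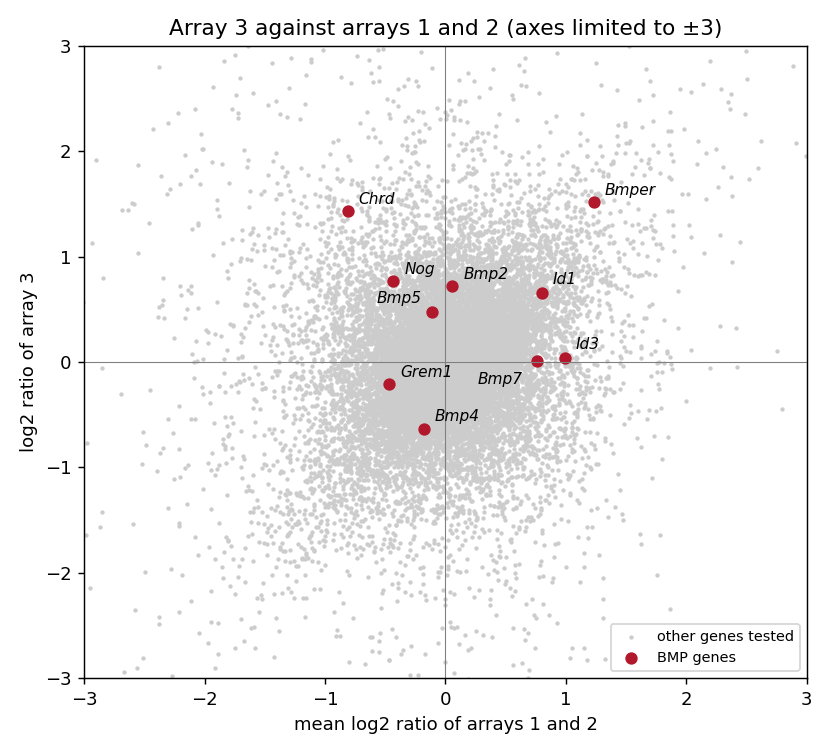
Log2 ratio on array 3 (vertical axis) against the mean log2 ratio of arrays 1 and 2 (horizontal axis) for all genes tested (grey) and the 10 BMP genes (red); axes are limited to ±3, and genes beyond are not drawn. Bmper (1.23 and 1.52) and Id1 (0.80 and 0.65) are positive on both axes, Id3 and Bmp7 lie at 0 on array 3, and Chrd (-0.81 and 1.43) and Nog (-0.43 and 0.77) lie on opposite sides.

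Id1 and Id3 encode helix-loop-helix proteins without a DNA-binding region, which hold back differentiation by trapping other helix-loop-helix factors, and both are direct Smad targets. Id1 stood at 0.85, 0.75 and 0.65 on arrays 1, 2 and 3, the smallest spread of the 10 genes. The mean was 0.75 ± 0.097 (SD, n = 3), a 1.68-fold difference, with an interval from 0.36 to 1.14 (limma unadjusted p = 0.00539, adjusted p = 0.144). It stood at percentile 91.0, 93.4 and 86.6 of all genes on the arrays, and its mean without array 3 was 0.80.

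Id3 stood at 0.98 on array 1 and 0.997 on array 2, but at 0.038 on array 3, the same contrast between arrays as Bmp7. Its mean was 0.67 ± 0.55 (SD, n = 3), a 1.59-fold difference, with an interval from -0.015 to 1.36 (limma unadjusted p = 0.0534, adjusted p = 0.305). Without array 3 it was 0.99 (limma unadjusted p = 0.00582), a fit in which 19.9% of all genes had an unadjusted p under 0.05. Without array 1 the Id3 mean was 0.52 (limma unadjusted p = 0.194), and without array 2 it was 0.51 (limma unadjusted p = 0.213). The other Id genes of the pathway list lay on the same side. Id2 stood at 0.36, 0.56 and 0.21, with a mean of 0.38 ± 0.18 (SD, n = 3; limma unadjusted p = 0.0684). Id4 stood at 1.35, 0.83 and 0.62, with a mean of 0.93 ± 0.38 (SD, n = 3; limma unadjusted p = 0.00815, adjusted p = 0.163). All 4 Id genes were thus positive on all 3 arrays, as were 21.5% of all genes, though Id3 only by 0.038 on array 3. Their means ran from 0.38 to 0.93, and none passed the adjusted test.

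The rest of the pathway was read from a list of 72 further genes by role, of which 60 were measured. Limma's adjusted test passed 0 of the 60. The unadjusted rule was met by 14, of which 9 were positive and 5 negative, where it was met by 16.8% of all genes, 8.99% positive and 7.83% negative. The median of the 60 means was -0.0047. Leaving out array 1 or array 2 lowered the count to 9 each time, and leaving out array 3 gave 16. The share of all genes moved the same way, to 8.55% without array 1, 10.6% without array 2 and 19.9% without array 3. Among 12 other ligands 2 met the unadjusted rule, both positive. Bmp6, a ligand of the Bmp5 and Bmp7 class, stood at 1.20, 1.04 and 0.58 (mean 0.94 ± 0.32, SD, n = 3; limma adjusted p = 0.147), and Gdf10, a relative of Bmp3, had a mean of 0.61 ± 0.36 (SD, n = 3; limma adjusted p = 0.257). Bmp6 thus had a larger mean than any of the 4 main ligands.

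Of 15 other extracellular antagonists and modulators, 4 met the unadjusted rule, 2 on each side, against 16.8% of all genes. Sostdc1, a secreted BMP and Wnt antagonist of kidney and tooth, stood at 0.58, 0.82 and 0.67, with a mean of 0.69 ± 0.12 (SD, n = 3; limma adjusted p = 0.160). Fstl1, a secreted follistatin-like glycoprotein, had a mean of 0.47 ± 0.21 (SD, n = 3). On the negative side stood Bambi, a membrane pseudoreceptor that damps signalling and is itself a BMP target, at -0.33, -1.02 and -0.76 (mean -0.70 ± 0.35, SD, n = 3; limma adjusted p = 0.214). Smoc1, a matrix protein that inhibits BMP signalling, stood at -1.86, -0.42 and -1.67 (mean -1.31 ± 0.78, SD, n = 3; limma adjusted p = 0.195). Inhibitors of BMP signalling were therefore found on both sides of the ratio. The median over the 15 genes was -0.18.

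The receptors and co-receptors had means on both sides of 0, from -0.71 to 0.78. Of 11 measured, 1 gene met the unadjusted rule, against 16.8% of all genes. That gene was Neo1, neogenin, which binds the BMP co-receptors of the RGM family and netrins, at 0.86, 0.90 and 0.57 (mean 0.78 ± 0.18, SD, n = 3; limma adjusted p = 0.149). Its 2 oligos were both positive on every array, with means of 1.10 and 0.45. The type I receptors Bmpr1a, Bmpr1b, Acvr1 and Acvrl1 had means of 0.064, -0.15, -0.39 and 0.060. The type II receptors Bmpr2 and Acvr2b had means of 0.25 and -0.093, and the oligos of Bmpr2 disagreed, with means of 0.83 and -0.32. The co-receptors Eng, Rgmb, Hjv and Tgfbr3 had means of 0.30, -0.18, -0.71 and 0.0054. None of these 10 met the unadjusted rule, and the median of the 11 was 0.0054.

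The Smads and their regulators also had means on both sides of 0, from -0.92 to 0.25. Smad1, Smad5 and Smad9, which carry the BMP signal, had means of -0.48, -0.064 and 0.049, the shared partner Smad4 had 0.12, and the inhibitory Smad6 had -0.16. For Smad1 the arrays read -1.35, -0.44 and 0.34 (limma unadjusted p = 0.242), and the mean without array 3 was -0.90 (limma unadjusted p = 0.0479). In that fit without array 3, 19.9% of all genes met the unadjusted rule. The ubiquitin ligases Smurf1 and Smurf2, which mark Smads and receptors for breakdown, had means of -0.34 and 0.25, and the regulators Skil and Tob1 had 0.0028 and 0.0056. Of the 10 measured genes of this role 1 met the unadjusted rule, against 16.8% of all genes. It was Ski, a co-repressor that binds Smads, at -0.19, -0.85 and -1.73 (mean -0.92 ± 0.77, SD, n = 3, limma adjusted p = 0.287). Both Ski oligos had negative means, -0.95 and -0.89, but the first stood at 0.23, -0.72 and -2.37 on arrays 1, 2 and 3. Without array 3 the Ski mean was -0.52 (limma unadjusted p = 0.107).

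**Figure D3:**
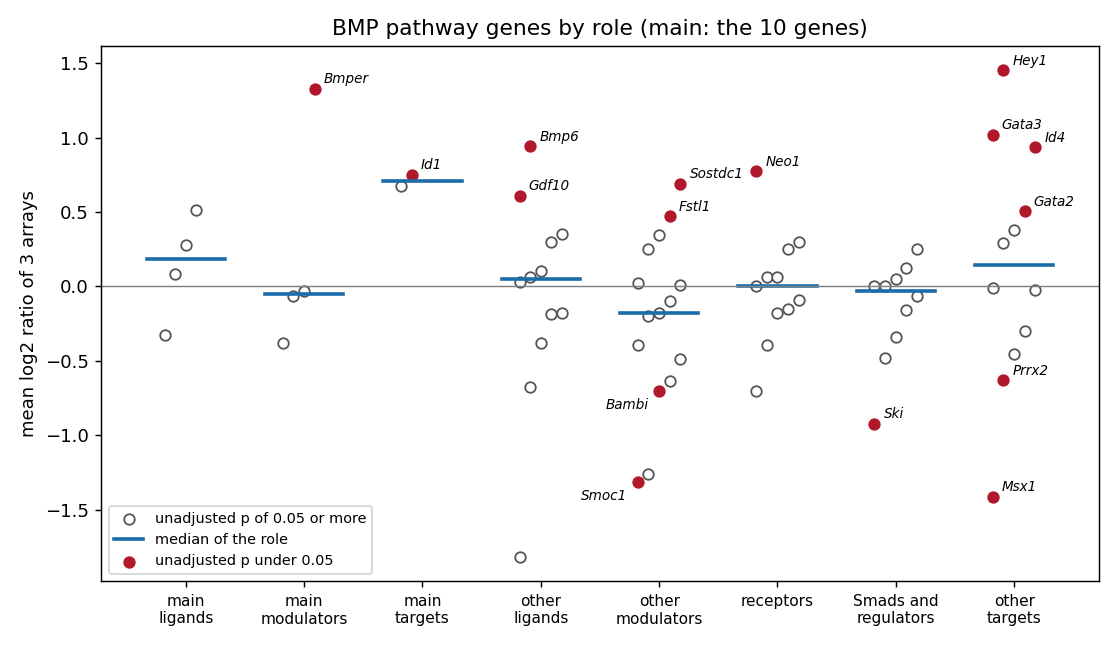
Mean log2 ratio of 3 arrays (vertical axis) of the 10 main BMP genes and the 60 measured genes of the wider pathway list, by role; filled red points had an unadjusted limma p under 0.05 and blue lines are medians. Receptors and Smads fall on both sides of 0 (medians 0.0054 and -0.031), and the other targets spread from -1.41 for Msx1 to 1.45 for Hey1.

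The other transcriptional targets parted to both sides, with 6 of 12 measured genes meeting the unadjusted rule that 16.8% of all genes met, 4 positive and 2 negative. On the positive side were Id4, Hey1, a repressor that answers to Notch as well as BMP, at 1.75, 1.60 and 1.00 (mean 1.45 ± 0.40, SD, n = 3; limma adjusted p = 0.109), and the zinc-finger factors Gata3 and Gata2. Gata3, a factor of the nephric duct and ureteric bud, stood at 1.05, 1.11 and 0.90 (mean 1.02 ± 0.11, SD, n = 3; limma adjusted p = 0.110), and Gata2 had a mean of 0.50 ± 0.11 (SD, n = 3). On the negative side, the homeobox gene Msx1, a BMP target in limb and face, stood at -2.06, -0.78 and -1.40 (mean -1.41 ± 0.64, SD, n = 3; limma adjusted p = 0.148), and Prrx2 had a mean of -0.63 ± 0.43 (SD, n = 3). Msx1 and the Id genes, all known as BMP targets, hence had opposite signs on every array. On array 3, however, Id3 lay near 0 (0.038). Msx2 and Dlx5 were also negative on every array, with means of -0.30 and -0.46, but did not meet the unadjusted rule. Of the 12 other targets, 6 were positive and 4 negative on all 3 arrays, as were 21.5% and 19.9% of all genes.

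Marker lists of the tissues and of what a dissection could bring along were also read, some leaning to one side and others mixed. The unadjusted rule, which 8.99% of all genes met with a positive mean and 7.83% with a negative one, was met on the negative side by 7 of 11 measured genes of limb and body wall mesenchyme, a list that includes Msx1 and Prrx2 and had a median of -0.64. It was met on the negative side by 6 of 10 somite and muscle genes (median -0.56), 5 of 10 red-cell genes (median -0.61) and 3 of 9 neural genes (median -0.36), and by none of these on the positive side. On the positive side it was met by 6 of 11 renal stroma genes (median 0.72) and 3 of 11 ureteric bud genes, which include Gata3 (median 0.12), and by none of either list on the negative side. The nephron progenitor list had 5 of 11 positive and 1 negative by that rule (median 0.29), and the nephron epithelium and podocyte list 2 of 10 positive and 1 negative (median 0.22). Id1, Id3 and Bmper are also active in vessels. The endothelial list went both ways, with means from -0.86 to 0.64, 1 of 10 genes on each side by that rule and a median of -0.018. The part of any of these cell types, endothelium included, in the BMP values was not tested, and ratios do not show whether a marker is absent from a tissue.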

How the data were processed

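The submitters' labels describe 3 2-colour arrays of the Compugen mouse oligo set, images read with ImaGene 5.5, print-tip loess within arrays, a normalization between arrays in R, and a Lowess adjustment of the control value using 20% of the data at each point, with control values under 10 set to 10. The authors deposited a log2 ratio per oligo and array; the numerator, the dye of each RNA and the genome build are not given in the sources used here. Signal intensities were not used here, so dim or saturated spots could not be told apart, and the number of arrays limits the precision.

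Of 22702 spots, 883 controls were left out. Oligos with a value on all 3 arrays were kept (21094), and those sharing a symbol were averaged. Oligos with several symbols or none (137 and 5026 of 21819 library oligos, before that filter) stayed under their own identifiers. They count among the 19635 genes in every share, percentile and rank. The 19635 were fitted with limma 3.58.1 in R 4.3.3 (intercept only, eBayes, two-sided, Benjamini-Hochberg over all genes, threshold 0.05). The fit was tested on simulated data. An exact sign-flip test of 3 arrays cannot go below p = 0.25. No label says whether the arrays used different tissue pools; p-values therefore rest on a variation among arrays that may be only technical. The members and lists were chosen with earlier results of these data known. Named genes are the 10 members, all measured receptors and Smads, other pathway genes with an unadjusted p under 0.05, and 4 genes for orientation. Id2, named to complete the Id family, Msx2 and Dlx5, named beside Msx1, and the genes of the closing section fall outside this rule. Alternatives covered oligo averaging, missing values, scaling, array weights, variance moderation and leaving out each array. Promoter windows came from RefSeq (GRCm38.p6).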

Additional observations from a re-analysis of the deposited data

How the results depend on the processing

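The 10 BMP means kept their sign and their side of the adjusted threshold in every alternative tried except for Bmp5, Nog, Chrd and, by 1 of its oligos, Bmp2. With array weights, which gave arrays 1, 2 and 3 weights of 1.23, 1.65 and 0.49, Bmp5 turned to -0.065. With 1 array left out, Bmp5 ranged from -0.11 (without replicate 3) to 0.35, Nog from -0.43 to 0.21 (0.12 without replicate 1 and 0.21 without replicate 2), and Chrd from -0.81 to 0.57 (0.57 without replicate 1 and 0.051 without replicate 2). The number of members with an unadjusted limma p under 0.05, 2 as reported and all positive, was 4 with array weights and from 2 to 4 with 1 array left out, while the share of all genes rose from 16.8% to 21.5% with array weights and 19.9% without replicate 3; Bmp7 and Id3 were the genes added with array weights (limma unadjusted p = 0.0192 and 0.0114) and without replicate 3. Bmper and Id1 met the unadjusted rule in all 11 alternatives, with limma adjusted p from 0.0782 to 0.478 and from 0.0947 to 0.568. Bmper and Id1 were each read by 1 oligo with a value on every array. The oligo and missing-value alternatives therefore left their ratios unchanged. For the 60 pathway genes the count of 14 ranged from 9 to 16 with 1 array left out, that of 9 positive from 5 to 9 and that of 5 negative from 3 to 7. In each fit 0 members and 0 pathway genes passed the adjusted threshold. With each oligo on its own, the Bmp2 oligos had means of 0.70 and -0.15, against 0.28 averaged. No paired analysis was possible because the arrays form 1 group.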

Other observations

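Several other genes of the pathway list read alike on arrays 1 and 2 and opposite on array 3, as Chrd did. Bmp8a, a ligand of the germ line and placenta, stood at -2.18, -3.84 and 0.57, and its close paralogue Bmp8b at -2.27, -0.97 and 1.22; the values of such similar genes are uncertain, since an oligo can detect both transcripts. The antagonist Cer1 stood at -1.99, -1.61 and 1.70, and Crim1, a membrane protein that binds BMPs, at -1.30, -1.41 and 1.24. These genes were chosen after their values were seen. Of the 70 members and pathway genes, 3 were at -1 or lower on both arrays 1 and 2 (Bmp8a, Cer1 and Crim1), and all 3 were positive on array 3. Another 3 were at 1 or higher on both arrays (Bmp6, Gata3 and Hey1), and 0 of these were negative on array 3. Over all genes tested 366 were at -1 or lower on both arrays 1 and 2, and 142 of them, or 38.8%, were positive on array 3. In the opposite direction 274 genes were at 1 or higher on arrays 1 and 2, and 49 of them, or 17.9%, were negative on array 3. Chrdl1, a chordin-like antagonist, stood at -3.64 on array 2 alone, against 0.080 and -0.23 on arrays 1 and 3.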
